A study of Harpegnathos saltator with 36 samples.

Results

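The ovaries of Harpegnathos saltator revertants, which had been reproductive gamergates and had returned to a nonreproductive state, were compared with the ovaries of workers that had never become reproductive. All genes of the ovary count table entered the comparison, with 4 revertant and 4 worker libraries out of the 36 samples of the series. Each library was made from polyA RNA of the ovaries of a single 6-month-old ant. The revertants had become gamergates over 3 months in a nest without a reproductive female, had then been isolated for 4 weeks, and had spent about 2 months in an established colony whose ants policed them. The 4 gamergates, which supply the reproductive end of the scale, had gone through the same 3-month transition and were sampled while fertile. The 4 workers were nonreproductive ants of the transition colony. Since revertants were taken from the reversion colony and both other castes from the transition colony, colony and caste cannot be told apart between revertants and workers. The comparison asks how far a regressed ovary matches one that was never activated, and how much single ants of one caste differ.

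An ant ovary is a bundle of ovarioles. Each begins with a germarium that houses the germline stem cells, followed by egg chambers in which an oocyte grows inside a layer of somatic follicle cells, first by receiving RNA from nurse cells and later by taking up yolk. A sheath of muscle and of extracellular matrix surrounds the ovarioles, and hemocytes and fat body cells can adhere to it. Bulk RNA from whole ovaries therefore mixes germline, follicle, muscle and blood cell transcripts in proportions that shift with the number and stage of egg chambers.

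Levels of single genes are in log2 CPM, the logarithm of counts brought to a common library size, scaled by TMM over the 12 ovary libraries with a prior count of 2. Total counts ranged from 1663266 to 7391217 in revertants, from 5354569 to 23882325 in gamergates and from 1863023 to 7519671 in workers. A count of 3, taken as the limit of detection, is 1.80 CPM in the smallest library and 0.399 CPM in the largest worker library, and covers counting error only. The tissue label matched its markers. The RNA helicase vas and the translational regulator orb, both germline genes, were at 658 to 1064 CPM and at 725 to 1446 CPM in the 8 ovary libraries, whereas the synaptic genes nSyb and Syt1 were at 1.06 to 5.70 CPM and 2.75 to 41.1 CPM.

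The 8 libraries did not separate by caste. The first principal component held 48.1% of the variance over 8411 genes averaging 5 CPM or more, and it placed revertant 2 (34.1), revertant 3 (43.1) and worker 3 (54.5) opposite revertant 1 (−31.4), revertant 4 (−42.1), worker 1 (−8.67), worker 2 (−21.1) and worker 4 (−28.4). The same 3 libraries were the ones with more than 3500000 counts, a limit chosen with the totals known. The second component held 16.1% and set revertants 1 and 4 (19.6 and 33.2) and worker 3 (21.1) apart from workers 1, 2 and 4 (−21.4, −23 and −20). Thus each caste contained libraries of both kinds, and results that depend on this division are given with it.

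**Figure D1:**
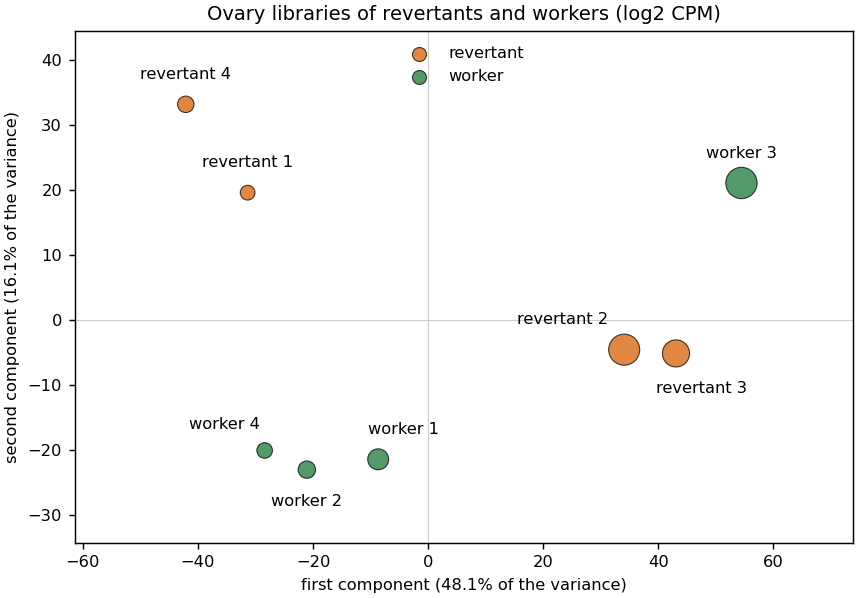
The 8 ovary libraries of revertants (orange) and workers (green) on the first and second principal components of log2 CPM, with the area of each point proportional to the total counts of the library. Revertants 2 and 3 lie with worker 3 on the right, at 34.1, 43.1 and 54.5, and the other 5 libraries lie on the left.

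Of the 10 genes with the highest weight on the first component, 8 have no name, and the others were wech and the eggshell gene fs(1)N. The genes given here were chosen after their values had been seen, and yl and cad are not among those 10. The eggshell gene fs(1)N, known in Drosophila as Nasrat, was at 8.95 and 9.54 log2 CPM in revertants 2 and 3 and at 9.19 in worker 3, against 4.76 and 3.26 in revertants 1 and 4 and 6.26, 4.62 and 5.35 in workers 1, 2 and 4. Its range in gamergates was 8.64 to 8.91, so these 3 libraries were above the gamergate range. The yolk receptor gene yl had 8.34, 10.51, 11.03 and 7.30 log2 CPM in revertants 1 to 4, 10.65 to 10.83 in gamergates, and 9.11, 8.90, 10.94 and 8.55 in workers 1 to 4. The homeobox gene cad, whose maternal transcript patterns the embryo in Drosophila, was at 2.68, 6.25, 6.10 and 1.32 log2 CPM in revertants and at 3.94, 2.98, 6.11 and 2.53 in workers. For each of these genes the castes overlapped widely, and the log2 fold change of revertants relative to workers had an interval that spanned both directions (fs(1)N, 0.80 with a 95% interval of −2.27 to 3.87).

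On the other side of the component, Pgrp-s2, a peptidoglycan recognition protein, was among the 10 leading genes, several of which have no name. It was at 8.69 and 7.53 log2 CPM in revertants 1 and 4 and at 5.19, 2.75 and 6.89 in workers 1, 2 and 4, but at 0.57 and 2.54 in revertants 2 and 3 and at 1.84 in worker 3. Among the gene lists, the summed levels of germline, ribosomal protein, muscle, immune, and insulin and TOR signalling genes followed this division, and yolk uptake and eggshell genes did not. Muscle and immune genes, given below, were lowest in revertants 2 and 3 and worker 3. Insulin and TOR signalling genes summed to 5601, 5124 and 5915 CPM there, against 4210 to 4787 CPM in the other revertants and workers. The 36 genes of germline and oogenesis summed to 7808, 12270, 12910 and 7574 CPM in revertants 1 to 4, to 11170 to 12870 CPM in gamergates, and to 8845, 9292, 13810 and 7426 CPM in workers 1 to 4. The 76 genes of cytosolic ribosomal proteins went the other way, with 13780 and 13660 CPM in revertants 2 and 3 and 11320 CPM in worker 3, and with 18820 to 24790 CPM in the other 5 libraries. The 14 genes of yolk uptake and eggshell summed to 2810, 2517, 3328 and 1972 CPM in revertants 1 to 4 and to 1337, 1453, 4958 and 1578 CPM in workers 1 to 4, where worker 3 was the highest but revertants 2 and 3 did not stand apart from revertant 1. In bulk RNA, fewer cells of a type and less RNA per cell cannot be told apart. Library size divided the 8 libraries in the same way as fs(1)N, yl and cad did, and its part in these differences was not tested.

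Single libraries also differed along the scale from workers to gamergates. A position was computed for each library from 415 genes that were higher in gamergates than in both other castes by at least 2 on the log2 scale and 463 genes that were lower than in both, with 0 set to the mean of the workers and 100 to the mean of the gamergates. Revertants 1 to 4 had positions of −6.27, 11.8, 20.6 and −10.1. Gamergates lay between 93 and 106, and workers 1 to 4 had positions of −4.12, −9.29, 22.4 and −8.94. Since the genes were kept only where gamergates differed from revertants as well, a revertant mean near 0 (3.99 ± 14.6, SD, n = 4) is set by that choice and does not measure the return. The spread among single ants was similar, with an SD of 15.1 among workers, and worker 3 and revertant 3 lay nearest to the gamergates.

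**Figure D2:**
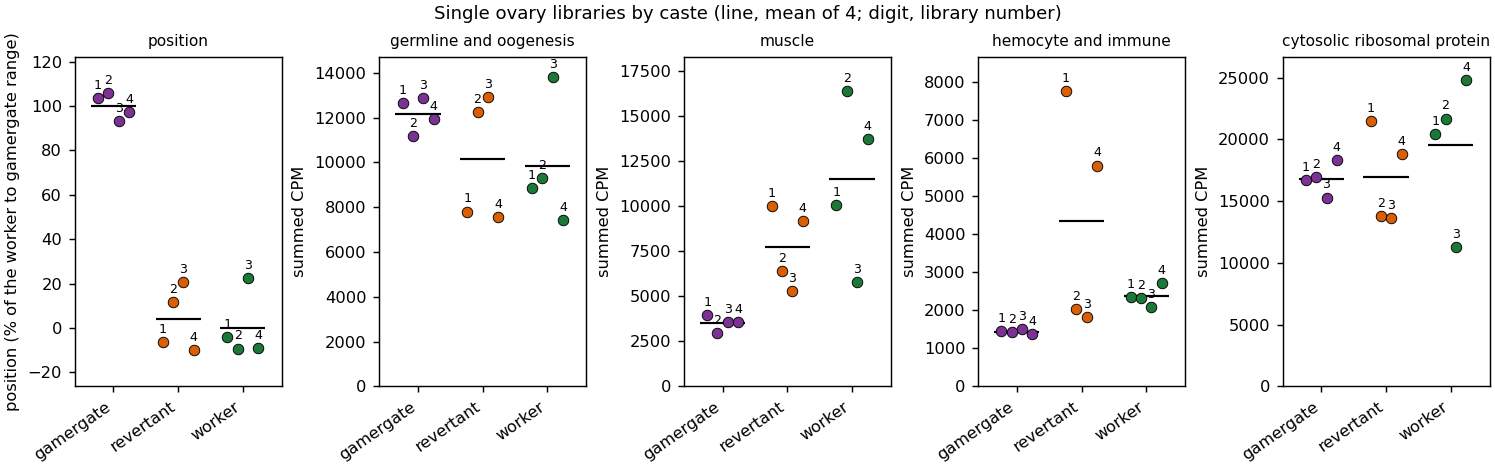
Position of each ovary library on the worker to gamergate scale (left) and the summed CPM of 4 marker lists, with points for single libraries numbered within their caste and lines for means of 4. Revertants 2 and 3 and worker 3 are higher in position and germline genes than the other revertants and workers, and lower in muscle, immune and ribosomal protein genes. Revertants 1 and 4 are the highest in immune genes.

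Over the 8411 genes, the division by size outweighed caste in the distances between libraries, but within a size class libraries of different castes were mostly farther apart than libraries of one caste. The root mean square difference in log2 CPM had a median of 0.763 over the 16 pairs of a revertant and a worker (0.671 to 1.18), of 0.976 over the 6 pairs of revertants (0.529 to 1.10) and of 0.736 over the 6 pairs of workers (0.466 to 1.08). Within a size class it was 0.671 to 0.850 over 8 pairs of a revertant and a worker (median 0.728), against 0.466 to 0.723 over 5 pairs of one caste (median 0.530), so these ranges overlapped only through the pair of revertants 1 and 4. Across size classes it was 0.749 to 1.18 between castes and 0.932 to 1.10 within them. The nearest neighbour of revertant 1 was worker 1 (0.671), that of revertant 4 was worker 4 (0.719) and that of worker 3 was revertant 3 (0.697). Revertants 2 and 3 were nearest to each other (0.529), as were workers 2 and 4 (0.466). The median SD of a gene was 0.340 log2 among revertants and 0.312 among workers, and 135 and 81 genes had an SD over 2 in revertants and in workers.

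Some of this spread came from worker 3 alone. LOC105185703, LOC105190297 and LOC105181597, which have no protein name, were among the 5 genes with the largest SD among workers. LOC105185703 was at 11.49 log2 CPM in worker 3 and at 4.07 to 4.62 in the other workers, against 4.68 to 7.05 in revertants and 12.74 to 13.54 in gamergates. LOC105190297 and LOC105181597 were at 8.81 and 7.63 in worker 3, against 2.27 to 4.18 and 1.93 to 4.93 in revertants. In LOC105185703 worker 3 stood nearer to the gamergates than any revertant did. A choice by the SD among workers favours genes in which 1 worker stands alone, so this contrast does not extend to other genes. Vg, which encodes the yolk precursor vitellogenin, was at 9.99, 3.79, 6.57 and 5.24 log2 CPM in revertants 1 to 4, at 9.55 to 11.49 in gamergates, and at 6.73, 5.62, 10.07 and 4.42 in workers 1 to 4. Revertant 1 and worker 3 thus each had a level within the gamergate range. Among revertants, the largest SD belonged to genes that were high in revertant 1, such as the pheromone-binding protein Gp-9-like genes LOC105186861 and LOC105188434, the first at 11.77, 1.19, 4.55 and 9.86 log2 CPM in revertants 1 to 4.

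Tested gene by gene, no difference between revertant and worker ovaries passed the threshold. Of 8667 genes tested with edgeR's quasi-likelihood test, 0 (0%) had a Benjamini-Hochberg adjusted p under 0.05, and the smallest adjusted p was 0.268. At an unadjusted p under 0.05 there were 177 genes (2.04%) higher and 200 (2.31%) lower in revertants, 4.35% of the genes tested in all. In gamergates, by contrast, 2725 genes (29.4%) were higher and 2681 (28.9%) lower than in workers in the same test, and 2653 (28.7%) and 2680 (29%) were higher and lower than in revertants. limma voom, with and without sample quality weights, also called 0 genes between revertants and workers. Other tests called some, with 21 higher and 11 lower genes in DESeq2, 14 and 9 in edgeR's likelihood ratio test and 13 and 6 in edgeR's exact test. Without revertant 3 or revertant 4, the quasi-likelihood test called 1 and 2 higher genes.

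The absence of calls bounds the differences only in part. The 95% interval of the log2 fold change lay within ±1 for 6051 genes (69.8%) and within ±2 for 7951 genes (91.7%), and the median half-width of the interval was 0.556. Among the 1564 tested genes that gamergates expressed lower than workers by at least 1 on the log2 scale, the half-width was wider, at 0.931, and 515 genes (32.9%) were bounded within ±1. A difference of 2-fold between regressed and never activated ovaries therefore lay within the interval for most of the genes that were lower in gamergates.

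Of the 20 genes with the smallest p, 10 per direction at an average of at least 3 log2 CPM, 18 showed no overlap between the castes. Choosing genes by p in the same libraries favours such a result, so it adds no support for these genes. Among all genes tested, 91 (1.05%) were higher and 95 (1.1%) lower in every revertant than in every worker, 2.15% in either direction. A histone H2B gene, LOC105186141, encodes a core protein of the nucleosome and had 4.90, 5.57, 5.55 and 3.85 log2 CPM in revertants and 2.78, 2.91, 2.58 and 2.53 in workers. Every revertant lay above every worker, and above the gamergate range of 3.27 to 3.65. The difference was 2.46 ± 0.37 on the log2 scale (estimate ± standard error), with an adjusted p of 0.268 in edgeR's quasi-likelihood test. A further histone H2B gene, LOC105190168, was at 5.61, 5.71, 6.38 and 3.44 in revertants, 4.48 to 4.88 in gamergates, and 3.33, 3.55, 2.95 and 3.17 in workers. Revertant 4 lay within the workers here, and without it both genes passed the test, each with a log2 fold change of 2.71 and an adjusted p of 0.0252. Histone genes occur in near-identical copies, so the division of reads between the 2 genes is uncertain.

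The other genes on the higher side were less well characterized. LOC109503573, of no known name, was at 5.56, 6.38, 4.76 and 6.10 log2 CPM in revertants, 3.79 to 5.58 in gamergates and 3.44, 3.45, 2.86 and 3.17 in workers, a log2 difference of 2.63 ± 0.37 with an adjusted p of 0.268 in the quasi-likelihood test. The castes did not overlap, and the gene passed the test without revertant 3 (2.89, adjusted p = 0.0416). LOC105189890 was at 8.32, 7.46, 7.57 and 8.58 in revertants, 5.46 to 6.13 in gamergates and 6.42, 6.64, 6.72 and 6.65 in workers. Here revertants were farther from gamergates than workers were. The same held for ine, which in Drosophila encodes a transporter of the neurotransmitter and osmolyte family, with 5.79, 6.07, 5.80 and 5.49 log2 CPM in revertants, 2.29 to 2.82 in gamergates and 4.79, 4.96, 4.82 and 5.17 in workers. Its log2 fold change of revertants relative to workers was 0.87, with a 95% interval of 0.48 to 1.26. LOC105184204 was counted at 13, 49, 21 and 14 reads in revertants, 4 to 37 reads in gamergates and 2, 0, 0 and 0 reads in workers.

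On the lower side, Hao had the smallest p, and Pxn and a fibrillin gene of the extracellular matrix were among the 10 smallest. Hao, the peroxisomal hydroxyacid oxidase, was at 2.68, 2.59, 2.25 and 1.76 log2 CPM in revertants, 0.75 to 1.85 in gamergates and 4.93, 5.26, 4.02 and 4.32 in workers. All revertants lay below all workers and nearer to the gamergates, at a log2 difference of −2.41 ± 0.35 and an adjusted p of 0.268 in the quasi-likelihood test. Pxn encodes peroxidasin, the enzyme that crosslinks collagen IV in basement membranes, and was at 5.38, 5.30, 4.77 and 5.53 in revertants and 6.44, 6.84, 5.60 and 7.0 in workers. Its 95% interval was −2.03 to −0.56. LOC105189278, a fibrillin-2 gene for matrix microfibrils, was at 7.01, 6.43, 5.95 and 6.33 in revertants and 8.15, 8.73, 6.99 and 7.83 in workers, so that revertant 1 reached the lowest worker. The list of extracellular matrix genes holds Pxn, collagens, laminins, integrins and matrix metalloproteinases. Pxn was the only 1 of its 21 tested members with an unadjusted p under 0.05, beside 4.35% of all genes, and the list median was 0.09.

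LOC105191771 encodes farnesol dehydrogenase, which oxidizes a precursor of juvenile hormone, and was at 4.57, 3.74, 4.46 and 4.20 log2 CPM in revertants, 3.91 to 4.67 in gamergates and 5.37, 6.96, 4.77 and 6.74 in workers. VAChT, the vesicular acetylcholine transporter of cholinergic neurons, was at 1.33, 1.19, 1.17 and 1.04 in revertants and 2.17, 2.83, 2.97 and 1.81 in workers. Both genes had no overlap between castes, and their 95% intervals were −3.10 to −0.86 and −2.30 to −0.64. In the smaller libraries VAChT lay near the limit of detection of 3 counts, which is 1.80 CPM in revertant 1 and 1.44 CPM in revertant 4. The neuron list as a whole had a median of −0.15. At an unadjusted p under 0.05, 0 of 23 members were higher and 2 lower, beside 2.04% and 2.31% of all genes. The summed level of the list was 669 to 998 CPM in revertants and 680 to 1195 CPM in workers.

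**Figure D3:**
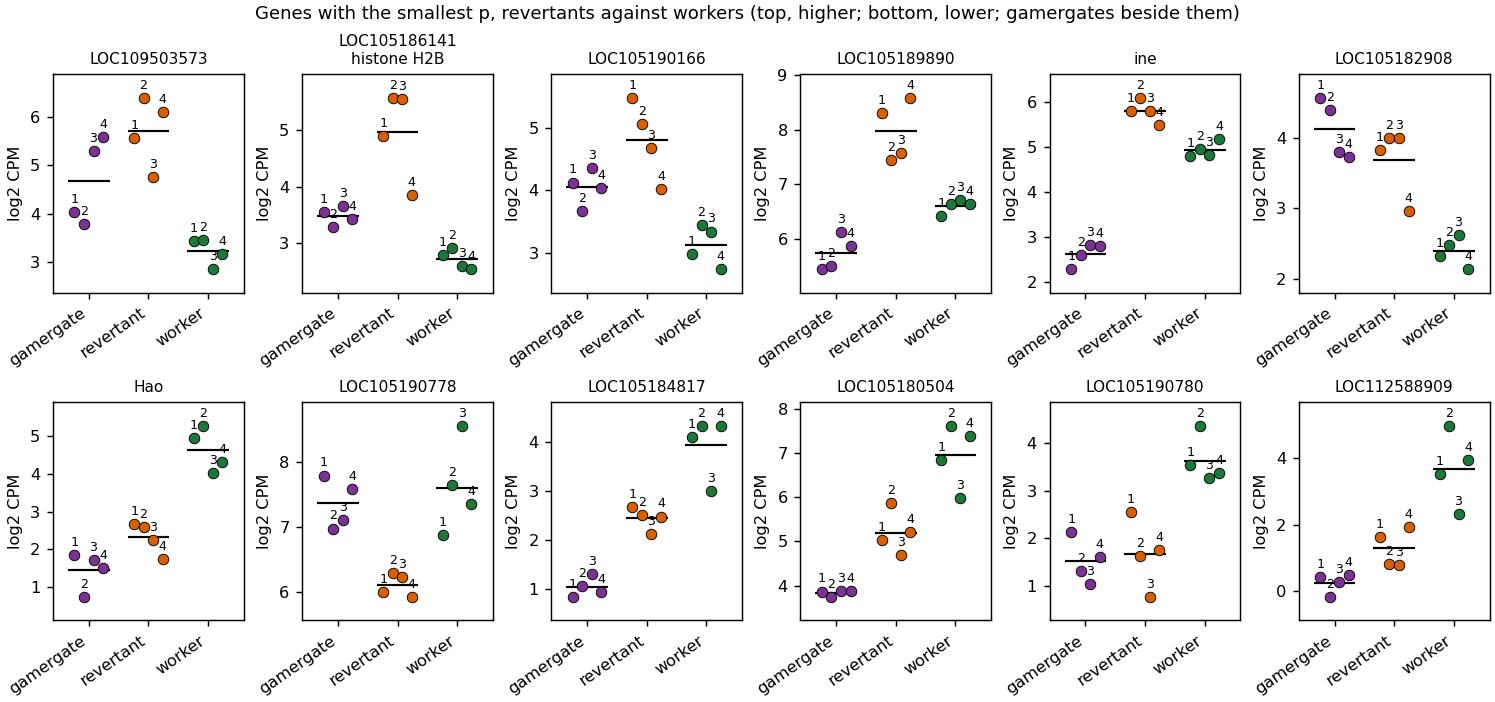
Log2 CPM of the 6 higher (top) and 6 lower (bottom) genes with the smallest p between revertants and workers among genes averaging at least 3 log2 CPM, for single libraries (points, numbered) with the mean of 4 (line), and gamergates at the left of each panel. Revertants lie outside the range of workers in all 12 panels, and for ine and LOC105189890 they lie farther from the gamergates than workers do.

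Over the 8 libraries, muscle had the median farthest from 0 among the 16 gene lists. Hemocyte and immune genes were farther from 0 with size class as a term (0.61, against −0.27 for muscle) and in the libraries under the limit (0.88 against −0.57). So they were without revertant 2 (0.61 against −0.53), revertant 3 (0.71 against −0.44) or worker 4 (0.57 against −0.55). With the size class term in 12 libraries the medians were 0.60 and −0.28. Of 36 muscle genes tested, 32 had a negative log2 fold change and 12 had an unadjusted p under 0.05, all of them lower in revertants, against 2.31% of all genes in that direction. The median of the list was −0.72, beside −0.01 for all 8667 genes. None passed the adjusted threshold. RyR, the calcium release channel of the sarcoplasmic reticulum, was at 6.22, 5.52, 4.98 and 5.67 log2 CPM in revertants, 4.59 to 5.25 in gamergates and 6.54, 7.39, 6.44 and 6.92 in workers, with no overlap between revertants and workers and a log2 fold change of −1.22 (95% interval −1.93 to −0.50). Obsc, a giant protein of the sarcomere, was at 7.33, 7.14, 6.57 and 7.45 in revertants and 8.72, 8.29, 7.37 and 8.72 in workers, so that revertant 4 reached the lowest worker. Muscle actin (LOC105188753) showed how the division of libraries enters. It was at 5.84, 2.90, 3.26 and 5.35 in revertants, 0.47 to 1.17 in gamergates and 7.58, 7.99, 4.07 and 7.81 in workers, so that worker 3 lay below revertants 1 and 4, yet within each size class every revertant lay below every worker.

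The summed level of the 37 muscle genes was 10010, 6410, 5271 and 9166 CPM in revertants 1 to 4, 2975 to 3950 CPM in gamergates and 10040, 16390, 5808 and 13710 CPM in workers 1 to 4. All 4 revertants thus lay below workers 1, 2 and 4, revertant 1 only just, and worker 3 lay within the revertant range. Among the 5 libraries under 3500000 counts, the median of the muscle list was −0.57, with 14 of 36 genes lower and 2 higher at an unadjusted p under 0.05, where 4.8% of all 8702 genes were lower and 8.52% higher. Among the 3 libraries over the limit it was −0.06, with 6 genes lower and 6 higher of 37, beside 9.34% and 6.15% of all 9608 genes, and the single worker is assumed to vary like the revertants. Without worker 3 the median was −1.05. Ovary sheath muscle and other muscle taken along at dissection are not separated in these data.

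The genes of oogenesis itself did not shift as a group over the 8 libraries. Only 1 of the 35 germline and oogenesis genes tested, the somatic gonad factor gene tj, had an unadjusted p under 0.05 (log2 fold change 0.57, 95% interval 0.00 to 1.14). The share over all genes was 4.35%. Of the 35 genes, 17 were positive and 18 negative with a median of −0.03. With size class as a term 26 of 36 were negative (median −0.11), and without revertant 2 it was 26 of 35 (−0.08). Without worker 3, 16 of 35 were negative (0.03). The germline gene vas was at 9.48, 9.44, 9.56 and 9.36 log2 CPM in revertants and 9.54, 10.06, 9.82 and 9.38 in workers, an interval of −0.69 to 0.17 for the difference. In this gene a 2-fold difference lay outside the interval. Of the 9 tested genes of yolk uptake and eggshell, 5 were positive with a list median of 0.24. An unadjusted p under 0.05 was found for 1 higher and 1 lower gene, beside 2.04% and 2.31% of all genes. LOC105185197, a serine protease snake-like gene, was at 7.30, 5.43, 5.28 and 8.88 in revertants and 5.15, 5.04, 5.64 and 4.84 in workers, with revertants 1 and 4 the highest and the others overlapping. ndl was lower in every revertant, at 6.40, 6.39, 5.42 and 6.81 against 6.91, 7.72, 7.29 and 7.60 in workers. ndl encodes nudel, a serine protease that follicle cells secrete in Drosophila. Its level in single gamergates spanned 5.29 to 9.79, on both sides of the revertants and workers. In the libraries under the size limit the yolk uptake and eggshell list had a median of 0.67. There 4 of 10 genes were higher and 2 lower at an unadjusted p under 0.05, beside 8.52% and 4.8% of all genes. The median of that list was 0.87 without worker 3, 0.50 with size class as a term and −0.15 with limma voom.

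Genes of DNA replication and cell cycle leaned to the lower side, with 48 of 59 negative and a median of −0.14. The 3 members with an unadjusted p under 0.05, all lower, beside 2.31% of all genes, were Cdc45, a subunit of the replicative helicase, geminin, which inhibits licensing of replication origins, and dpa, an Mcm helicase subunit. Cdc45 was at 4.76, 4.65, 4.87 and 4.81 log2 CPM in revertants, 5.80 to 6.30 in gamergates and 5.31, 5.09, 5.25 and 5.31 in workers. The castes did not overlap, and the revertants were the farthest from the gamergates, although the difference from workers was small at −0.47 (95% interval −0.78 to −0.16). Geminin was at 4.22, 4.45, 4.71 and 4.20 in revertants and 4.82, 4.85, 4.81 and 5.08 in workers. Among libraries under the size limit 15 of 59 members had an unadjusted p under 0.05 and were lower in revertants, beside 4.8% of all genes. The libraries over it, with a single worker, cannot decide whether this held there. Cytosolic ribosomal proteins were negative in 64 of 74 genes with a median of −0.20, but 1 gene had an unadjusted p under 0.05, beside 4.35% of all genes. Their median was 0.02 with size class as a term and 0.27 among the libraries over the limit. The 53 genes of the mitochondrial respiratory chain had a median of 0.06, and the 18 genes of heat shock and stress had a median of 0.05. In both lists 0 genes had an unadjusted p under 0.05, beside 4.35% of all genes.

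**Figure D4:**
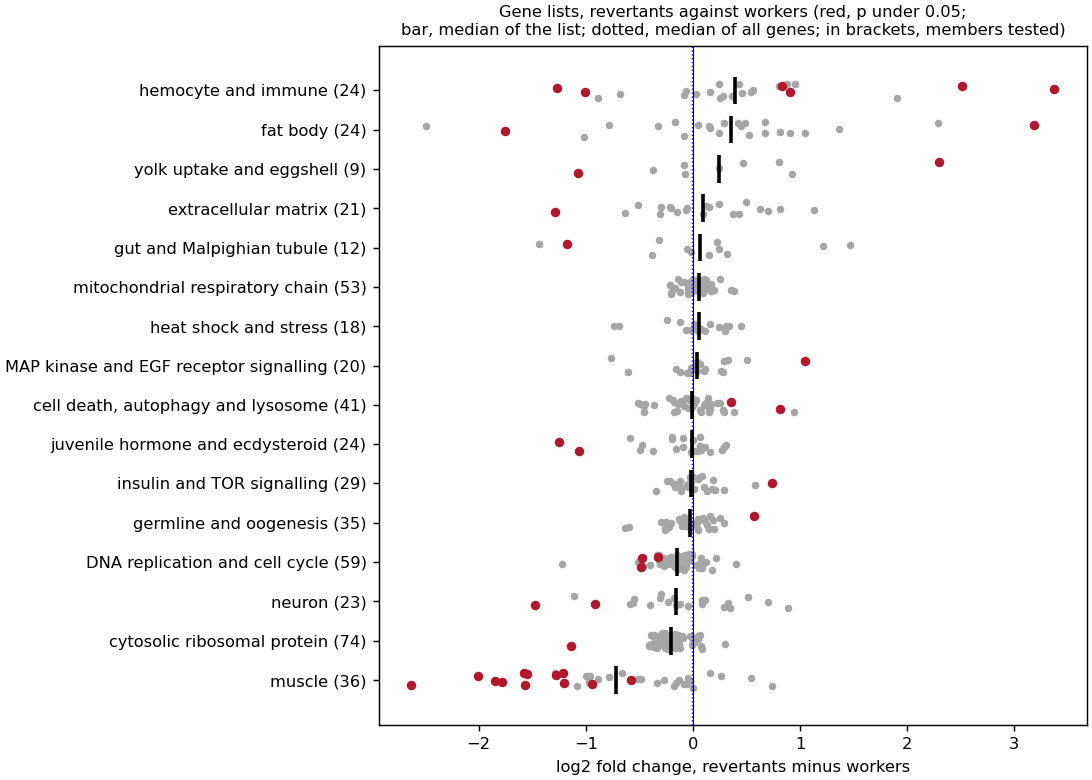
Log2 fold changes of revertants relative to workers for the tested members of 16 gene lists, with members at an unadjusted p under 0.05 in red, the median of each list as a bar and the median of all 8667 genes dotted. Over the 8 libraries muscle has the lowest median (−0.72, with 12 red points of 36) and hemocyte and immune genes the highest (0.40), and the germline list is centred near 0.

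Immune genes divided the revertants themselves. The 24 genes of hemocytes and immunity summed to 7769, 2038, 1837 and 5811 CPM in revertants 1 to 4, to 1379 to 1516 CPM in gamergates and to 2362, 2328, 2083 and 2723 CPM in workers 1 to 4. Revertants 1 and 4 thus exceeded every worker, whereas revertants 2 and 3 lay below all 4. The median of the list over the 8 libraries was 0.40, with 4 genes higher and 2 lower at an unadjusted p under 0.05, beside 2.04% and 2.31% of all genes. In the libraries under the limit 12 were higher and 2 lower, beside 8.52% and 4.8%. Beta-1,3-glucan-binding protein 2 (B-gluc1), which recognizes fungal cell walls, was at 11.77, 5.99, 7.55 and 9.02 log2 CPM in revertants and 7.72, 5.83, 5.18 and 6.81 in workers. Phenoloxidase-activating factor 2 (LOC105192180), a protease of the melanization cascade, was at 9.63, 5.84, 6.19 and 8.60 in revertants and 6.47, 5.83, 4.49 and 6.01 in workers. The receptor gene Tl was at 8.38, 7.43, 7.46 and 8.77 in revertants and 7.01, 6.66, 7.73 and 7.33 in workers. In all 3 genes revertants 1 and 4 were the 2 highest libraries.

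When only the 5 libraries under 3500000 counts were fitted, revertants 1 and 4 against workers 1, 2 and 4, the quasi-likelihood test called 40 genes (0.46%) higher and 3 (0.0345%) lower in revertants. The genes named here from that fit were chosen after their values had been seen. LOC105183222, a hemolymph lipopolysaccharide-binding protein, was at 10.25 and 9.38 log2 CPM in revertants 1 and 4 and at 7.26, 7.06 and 7.76 in the workers, a log2 difference of 2.54 ± 0.31 with an adjusted p of 0.031. LOC105180912, named serine protease snake, was at 6.16 and 8.55 in revertants 1 and 4 and at −0.30, 0.51 and 0.73 in the workers, while revertants 2 and 3 (−0.29 and 0.44) lay within the range of the workers. The tumor necrosis factor ligand gene egr (eiger in Drosophila) was at 8.79, 8.17, 7.96 and 8.98 in revertants 1 to 4 and 7.0, 7.37, 7.73 and 7.06 in workers 1 to 4. All revertants exceeded all workers for this gene, and its log2 fold change was 1.79 in the smaller libraries (standard error 0.18, adjusted p = 0.0208) and 1.23 over all 8 (unadjusted p = 0.00209). Its receptor gene wgn was at 6.06, 3.91, 3.95 and 6.72 in revertants and at 4.21, 4.83, 6.6 and 4.73 in workers. Worker 3 was thus as high in wgn as revertants 1 and 4. Idgf4, a chitinase-like growth factor, was at 10.58, 9.35, 9.41 and 10.22 in revertants and 8.58, 8.11, 9.22 and 8.30 in workers, again with no overlap (2.12 in the smaller libraries, adjusted p = 0.0208). Tps1, the enzyme of trehalose synthesis, was also called (1.63, adjusted p = 0.0336). With 2 revertants on one side, these calls describe 2 ants.

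**Figure D5:**
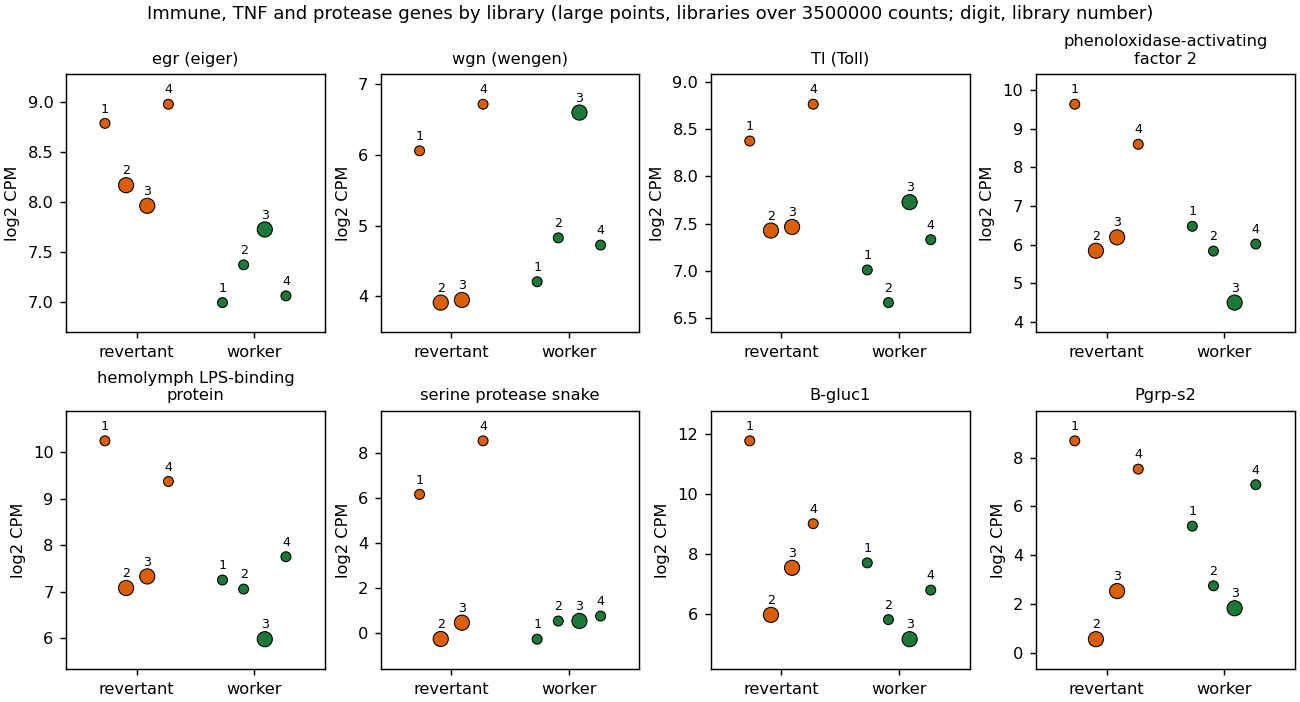
Log2 CPM of 8 genes of immunity, TNF signalling and serine proteases, chosen after their values had been seen, in single revertant (left) and worker (right) libraries, with large points for libraries over 3500000 counts and digits for the library number. Revertants 1 and 4 are the highest libraries in each panel except wgn, where worker 3 (6.6) lies between them, and all 4 revertants exceed all workers only for egr.

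The fat body list showed a similar dependence on single ants. Its 43 genes summed to 17190, 3782, 4042 and 5843 CPM in revertants 1 to 4 and to 8591, 4781, 5902 and 3946 CPM in workers 1 to 4, so revertant 1 stood above every worker and the remaining libraries overlapped. LOC105185670, which encodes apolipoprotein D, a lipid carrier, was the only gene called over all 8 libraries with size class as a term (log2 fold change 1.96, adjusted p = 0.0264 in the quasi-likelihood test). It was at 11.10, 7.61, 7.81 and 10.78 log2 CPM in revertants 1 to 4, 5.43 to 6.59 in gamergates, and 9.30, 8.75, 5.56 and 9.26 in workers 1 to 4. Within each size class every revertant lay above every worker, and without the term the castes overlapped with a log2 fold change of 1.36 (95% interval −0.83 to 3.56). LOC105184288, a facilitated trehalose transporter gene, was lower within each size class, at 7.64, 5.98, 6.48 and 8.21 in revertants and 9.13, 9.44, 7.31 and 9.61 in workers, and did not pass the test with the term (−1.29, adjusted p = 0.0773). The size class term itself was significant for 2587 of the 8667 genes (29.8%).

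Insulin genes, which the study follows through the caste switch, were at overlapping levels in both ovaries. Of 29 genes of insulin and TOR signalling tested, 0 had no overlap between the castes, beside 2.15% of all genes. An unadjusted p under 0.05 was found for 1 of them, beside 4.35% of all genes, and the median was −0.02. Neither count sets this list apart from all genes. The insulin-like growth factor gene IGF was at 3.94, 4.6, 4.91 and 2.59 log2 CPM in revertants, 8.23 to 8.58 in gamergates and 4.16, 3.17, 4.6 and 3.86 in workers. Every revertant and worker was far below every gamergate, and the 95% interval of the difference between them was −0.84 to 1.26. The insulin receptor genes InR1 and InR2 had intervals of −0.31 to 0.57 and −0.16 to 0.74, and Egfr, the epidermal growth factor receptor gene, −0.52 to 0.48. For these 3 genes a 2-fold difference lay outside the interval. Imp-L2, an insulin-binding antagonist, averaged 3.55 ± 0.54 in revertants, 5.80 ± 0.21 in gamergates and 3.45 ± 0.56 in workers (SD, n = 4 each).

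The 1 insulin gene with an unadjusted p under 0.05 was ALS, the gene of the acid-labile subunit that binds insulin-like peptides in complexes. It was at 2.91, 3.22, 3.36 and 3.61 log2 CPM in revertants, 6.39 to 7.43 in gamergates and 2.25, 2.98, 2.71 and 2.29 in workers, with a log2 fold change of 0.74 relative to workers (95% interval 0.10 to 1.37, unadjusted p = 0.0279 in the quasi-likelihood test). Revertant 1 overlapped with worker 2. Among 20 genes of MAP kinase and EGF receptor signalling, 1 had an unadjusted p under 0.05, beside 4.35% of all genes. This was rho-4, a rhomboid family gene. It was higher in every revertant, at 6.43, 5.74, 5.72 and 7.21 against 5.16, 5.12, 5.49 and 5.68 in workers. Ins, Elovl, Crz and Fasn did not reach the count filter in these ovaries.

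For the genes that separate gamergates from workers, the return was measured with workers not used to choose the genes. Among 1532 genes that were higher in gamergates than in workers 1 and 2 by at least 1 on the log2 scale, revertants differed from workers 3 and 4 by a median of −0.13 (quartiles −0.40 and 0.10). Among 1042 genes chosen with workers 3 and 4, revertants differed from workers 1 and 2 by 0.07 (quartiles −0.16 and 0.39). For genes lower in gamergates the medians were 0.01 over 2009 genes and −0.22 over 1538 genes. Set against the same workers, the workers used for the choice had medians of −0.31, 0.08, 0.40 and −0.15 in these 4 sets. These values rest on 2 workers, and the choice favours genes in which those 2 lie far from the gamergates. They are therefore no baseline against which the revertants can be judged. Single revertants spread more widely than the medians over the 4 revertants did. In the set of 1538 genes, revertants 1 to 4 had medians of −0.05, −0.37, −0.71 and 0.11, so that revertant 3 was the farthest toward the gamergates and revertant 4 lay on the far side of the workers. Differences of more than 1 on the log2 scale in either direction were found for 10.8%, 11.7%, 10.2% and 18.4% of the genes of the 4 sets between revertants and workers, and for 18.7%, 14.7%, 16.8% and 14.2% between the workers used for the choice and the same workers, with means of 4 revertants and of 2 workers. The shares of the workers used for the choice carry the same limits as their medians.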

How the data were processed

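The authors isolated polyA RNA, built strand-specific libraries, aligned the reads with STAR (2.5.3a in the submitters' processing notes, which also name Trimmomatic and edgeR) and deposited raw counts of reads per gene. The counting program, its use of strand and its handling of reads with several alignments are not given in the sources used here, so near-identical or overlapping genes are uncertain. Replicates are single ants. RefSeq symbols were matched for 12632 of 12654 gene identifiers, protein names came from a supplementary table, and no coordinates were used.

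From the deposited counts, castes were compared in pairs with edgeR 4.0.16 (TMM, filterByExpr, quasi-likelihood test, Benjamini-Hochberg adjusted p under 0.05) in R 4.3.3. Standard errors were derived from F statistics, and single genes were compared by exact permutation over 70 assignments. DESeq2 1.42.0, limma 3.58.1 and other scalings, filters, library size terms and omitted libraries were alternatives. The test was checked on simulated counts. No 2 libraries of a caste were identical, with a chi-square per degree of freedom of at least 8.65. Brain counts were used for no comparison between castes, and the other samples of the series were not analysed here. Genes, lists and the size limit were chosen with earlier results of these data known. Named genes are those of the study's identifier table, LOC105184204 and the 10 of smallest p per direction at an average of at least 3 log2 CPM. Also named are up to 8 per direction with the size class term, the 5 of largest SD per caste and up to 4 members per list with p under 0.05. The rules end with the 5 largest called differences per direction between gamergates and workers. SD and gamergate genes averaged at least 5 log2 CPM. Further genes were added outside these rules, such as yl, cad, vas and some from the first component and the fit under the size limit.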

Additional observations from a re-analysis of the deposited data

Results flagged for a closer look

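Single libraries stood apart from the other 3 of their caste, by Dixon's criterion, in 19 of 228 groups of values examined. Chance alone flags about 1 in 20 groups, but the number here cannot be read against that, since some genes were chosen for a large SD within a caste and others had almost no reads. Worker 3 accounted for most of them. Its position on the worker to gamergate scale was 22.4, and its yolk uptake and eggshell genes summed to 4958 CPM. It was above the other workers in LOC105185703 (11.49 log2 CPM), LOC105190297 (8.81), LOC105181733 (8.53), LOC105181597 (7.63), LOC105185742 (6.80) and Fasn (−0.48, where the other workers had no reads), and below them in LOC105185670, the apolipoprotein D gene (5.56), muscle actin LOC105188753 (4.07) and LOC105184817 (3.00). Among the other workers, worker 4 was apart in geminin (5.08 log2 CPM) and LOC112588075 (0.27), and worker 1 in LOC105184204 and Crz, both at −0.30, where few or no reads were counted.

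Among revertants, revertant 1 was apart in the summed fat body genes (17190 CPM) and in the summed genes of cell death, autophagy and lysosome (8123 CPM). Revertant 4 was apart in LOC105182908 (2.96 log2 CPM) and revertant 3 in Crz (−1.10).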

How the results depend on the processing

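The counts of genes called higher and lower in revertants were 0 and 0 under other scalings, filters, thinning, limma voom, a joint fit of 12 libraries, a log10 library size term and adjusted p thresholds of 0.01 and 0.1. They were 21 and 11 with DESeq2, 14 and 9 with edgeR's likelihood ratio test, 13 and 6 with edgeR's exact test, 1 and 0 with a size class term in 8 libraries, 39 and 30 with that term in 12 libraries, and 40 and 3 in the 5 libraries under 3500000 counts. In the 3 libraries over that limit, a fit added after seeing the data that rests on 1 worker, they were 207 and 468, and LOC105187459 and Pde8 turned to 1.40 and 1.91, against −0.13 and −1.25 over 8 libraries. Leaving out single libraries gave 0 to 2 higher and 0 lower genes. The 377 genes with an unadjusted p under 0.05 became 1031 with voom quality weights, 690 in the joint fit, 917 and 1400 with the size class term in 8 and 12 libraries, 708 with the log10 term, 1159 under and 1488 over the limit, and 217 (without worker 2) to 771 (without worker 3) when a library was left out. The cause was not tested. The same-numbered libraries come from different ants and their deviations correlated at 0.30, −0.19, 0.50 and 0.45, so they were not treated as pairs, and with the replicate number as a block 0 genes were called and 442 had an unadjusted p under 0.05. Positions, distances and the medians of genes that differed in gamergates moved by less than the spread between libraries in every alternative run for them. The smallest libraries limit what can be seen of genes near 1.80 CPM.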
